A study of Mus musculus with 8 samples.

Results

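Hap1 and Sri are 2 of the 55450 genes of GENCODE vM21, and both were chosen by measured values, the study's changes in their expression and the strength of their PRDM10 ChIP-seq peaks. All listed peaks that overlapped the gene body, 5 kb upstream of it or 1 kb downstream of it were taken. The rule found 2 EtOH peaks, 1 at each gene, and 1 4-OHT peak, at Hap1. The peaks came from Prdm10F/F; Rosa26-CreERT2 mouse embryonic stem cells (mESCs), which carry floxed Prdm10 alleles and a Cre recombinase that 4-hydroxytamoxifen (4-OHT) activates. Cells were given ethanol (EtOH) or 50 nM 4-OHT for 24 h and were harvested at 48 h, so that the EtOH control cells also carried the floxed alleles and the Cre, and the 4-OHT cells are labelled Prdm10del/del. Each treatment had 3 ChIP samples, made with 3 different polyclonal anti-PRDM10 antibodies, and 1 input sample. The peaks of a treatment were called on its pooled samples, so 1 list stands for each treatment, no value has a replicate error, and the lists do not record the read depth, for which the study's methods give only an approximate number of raw reads per library. The expression of Hap1 and Sri, on which the name strongly dependent rests, was not analysed here.

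PRDM10 is a member of the PRDM family, proteins with a PR domain and zinc fingers, and it acts as a transcription factor that binds DNA in a sequence-specific way. Factors of this kind bind short motifs, and the study found most PRDM10 peaks at or close to transcription start sites (TSSs). CpG-rich promoters often hold several alternative starts. Hap1 encodes huntingtin-associated protein 1, a protein of vesicle transport that binds huntingtin and motor-protein complexes and is best known from neurons. Sri encodes sorcin, a small calcium-binding protein with EF hands that regulates calcium release through ryanodine receptors. Neither gene is a classical marker of mESCs.

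Each EtOH peak held 1 full match to the 14-base PRDM10 motif, read by eye from the study's sequence logo and searched on both strands of the repeat-masked peak. Whether the letters of a site bear on the strength of its peak was not tested. The 3 sequences that follow allow the sites of a strong and a weak peak to be compared. They are the wild-type probe of the study's gel shift, the Hap1 site on the minus strand at chr11:100356134-100356161 and the Sri site on the plus strand at chr5:8056506-8056533 (GRCm38), each read 5′ to 3′ along the strand of its gene. Capitals mark the 14 motif bases.
WT gel shift probe: ctggcacAGTGGTCGCGCCCGgcccgcc
Hap1 site: cgccacgCGTGGTACAGCCCAgtggagc
Sri site: ggggcggCGTGGTGCGCTCCGgggcggc
The core letters TGGTNNNNNCC were the same in both gene sites, because a full match must hold all 6 core bases. Counted from 1 at the first capital, the Sri site differed from the Hap1 site by A7G, A9G, G10C, C11T and A14G, with the Hap1 base given first, and the other 9 of 14 bases were identical. The probe shared 9 of 14 bases with the Hap1 site and 8 of 14 with the Sri site. The probe itself matched the motif as read here at 13 of 14 positions.

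The DNA before each site is printed to show the sequence in which the 2 matches lay, over stretches that differ in length and were not aligned. The Hap1 stretch runs from the upstream end of the EtOH peak to the last base of the site, on the minus strand of chr11:100356141-100356393. The Sri stretch is the 300 bases before the inner start of the gene, on the plus strand of chr5:8056227-8056526. Capitals again mark the motif match, which closes each stretch.
Hap1 promoter: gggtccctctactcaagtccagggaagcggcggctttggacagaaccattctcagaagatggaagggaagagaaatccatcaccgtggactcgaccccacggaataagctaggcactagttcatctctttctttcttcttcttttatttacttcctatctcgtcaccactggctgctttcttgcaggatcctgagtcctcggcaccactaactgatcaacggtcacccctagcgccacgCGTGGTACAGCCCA
Sri inner promoter: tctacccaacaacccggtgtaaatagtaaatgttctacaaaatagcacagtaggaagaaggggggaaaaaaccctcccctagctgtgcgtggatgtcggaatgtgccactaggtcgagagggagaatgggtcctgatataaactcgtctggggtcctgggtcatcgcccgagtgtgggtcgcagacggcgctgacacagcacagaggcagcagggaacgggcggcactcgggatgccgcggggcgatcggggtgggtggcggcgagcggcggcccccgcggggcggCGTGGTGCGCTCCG

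In EtOH cells the Hap1 peak was strong and the Sri peak weak. These values, which the choice of the genes used, are given as a description with no test. The Hap1 peak lay at chr11:100356025-100356393, was 369 bp wide and had a signal value, the peak caller's enrichment, of 466. It ranked 75 of 528, above 85.8% of the listed peaks and at 3.54 times the list median of 131. The Sri peak lay at chr5:8056215-8056644, was 430 bp wide and had a signal value of 49.4. It ranked 401 of 528, above 24.1% of the listed peaks and at 0.375 times the median. Among the 376 peaks that touched a promoter, as the Sri peak did, it ranked 328, above 12.8%. Both peaks had the highest possible score of reproducibility (IDR score 1000), which 504 of the 528 peaks shared, so the weak Sri peak was not set apart by that score. Of 21951 protein-coding genes, 544 (2.48%) had an EtOH peak within the same window, and the choice of both genes from that group was fixed by the rule.

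**Figure D1:**
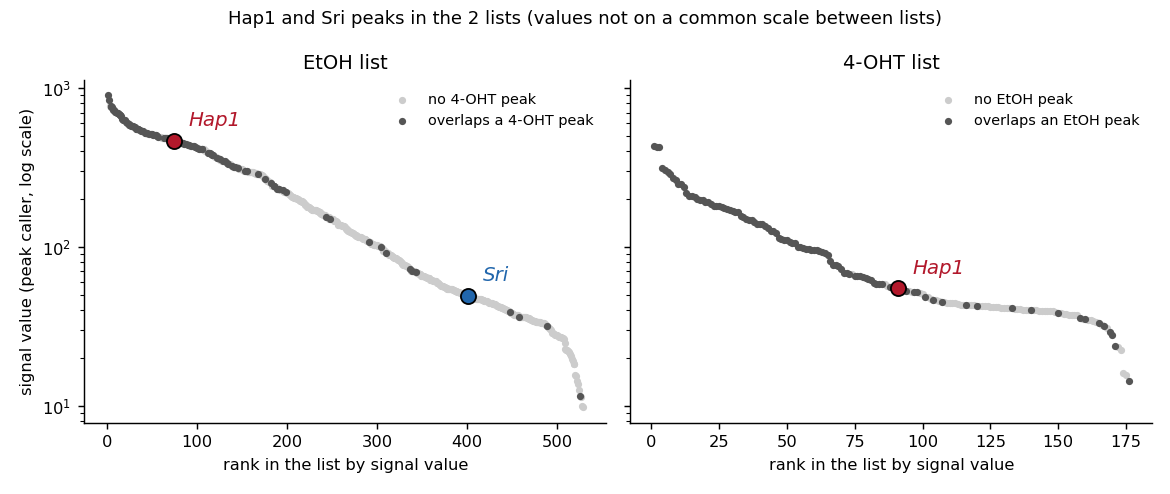
Signal value (log axis) of every listed peak against its rank, for both lists (528 EtOH peaks and 176 after 4-OHT), where a peak that overlaps one of the other list is dark grey. Hap1 (rank 75) and Sri (rank 401) are far apart in the EtOH list, and only Hap1 (rank 91) is in the 4-OHT list. The values of the 2 lists do not share a scale.

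The 2 peaks also differed in width, as did the peaks of like signal value around them. The Sri peak had the commonest width of the EtOH list, 430 bp, which 300 peaks shared, all 300 of them with the summit at the centre. Its summit is therefore the centre of a region of fixed size. The Hap1 peak was narrower than that, with its summit at 100356200 and not at the centre. Of the 50 EtOH peaks nearest in rank to each gene, 49 near Sri and 0 near Hap1 had the commonest width.

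After 4-OHT a peak was listed at Hap1 and none at Sri. Of the 528 EtOH peaks, 107 (20.3%) were overlapped by a 4-OHT peak, and of the protein-coding genes 161 (0.733%) had a 4-OHT peak in the window, so that 1 of 2 is a count of members and not a rate. The Hap1 4-OHT peak lay at chr11:100355651-100356790 and covered the whole EtOH peak (100%), which made up 32.4% of its length. The summits of the 2 Hap1 peaks were 21 bp apart. Because the 4-OHT peak was so much wider, the pair no longer counted as shared when at least 50% of each peak had to overlap. The 4-OHT peak had a signal value of 54.8, ranked 91 of 176 and stood at 0.984 times the median of its list, with an IDR score of 994. Its width of 1140 bp was the commonest of the 4-OHT list, shared by 125 peaks, all with a central summit.

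Within the 4-OHT list the Hap1 peak was among the weaker of the shared peaks. The 109 4-OHT peaks that overlapped an EtOH peak had a median signal value of 99.9, and 87 of them were higher than the Hap1 peak. Because the signal values were set separately for each list, no fold change between treatments is given, and with 1 pooled list each no test between treatments was possible. At Sri the nearest 4-OHT summit was 25595985 bp away. The lowest signal value of any listed 4-OHT peak was 14.2, so the lack of a listed peak at Sri does not show that no PRDM10 signal remained there.

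No other EtOH peak lay close to either peak, and how many of the other EtOH peaks were as isolated was not counted. The next EtOH peak was 316 kb from the Hap1 peak and 4112 kb from the Sri peak. Jup and Gast, the protein-coding neighbours of Hap1 at 12830 and 10331 bp, had no listed peak in their own windows. Adam22, 2973 bp beyond Sri, and Steap4, 63865 bp before it, also had none. The Sri peak fell in the windows of Gm15731, an antisense transcript, and Gm15730, a processed pseudogene, but their nearest starts were 3723 and 1291 bp from its summit. The Hap1 EtOH peak was in no other gene's window, while the wider 4-OHT peak also reached that of Gm20394, a processed transcript inside Hap1.

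At Hap1 the peak lay on the outer start of the gene. Hap1 (ENSMUSG00000006930) lies on the minus strand at chr11:100347327-100356128, has 5 annotated transcripts, all protein-coding, and the peak lay at the start of the longest of them. The EtOH summit was 72 bp upstream of the start of Hap1-202 and 113 bp upstream of that of Hap1-201, the transcript annotated as principal. The 4-OHT summit was 93 bp upstream of the Hap1-202 start. Both transcripts begin inside the EtOH peak and use the same start codon, at 100356077, which the peak also covers. The RefSeq promoter table (GRCm38.p6) gives Hap1 starts at 100356128 and 100356141, and both 300-base promoter windows lay wholly inside the EtOH peak and held the full match.

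At Sri the peak lay on an inner start. Sri (ENSMUSG00000003161) lies on the plus strand at chr5:8046078-8069379, with 7 annotated transcripts of which 2 are protein-coding. The principal one, Sri-202, starts at 8046078, and the EtOH summit was 10352 bp downstream of that start, in its first intron. The other, Sri-205, starts at 8056527, and the summit was 97 bp upstream of it. The peak covered exon 1 of Sri-205 (8056527 to 8056639) with its start codon at 8056589, and also the starts of 3 retained-intron transcripts. The 2 coding transcripts have separate first exons and start codons, and code for 183 codons in Sri-202 and 198 in Sri-205. The RefSeq promoter window of Sri is at the outer start, shared no base with the peak and held no match. Which of the starts was used in these cells was not measured here.

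**Figure D2:**
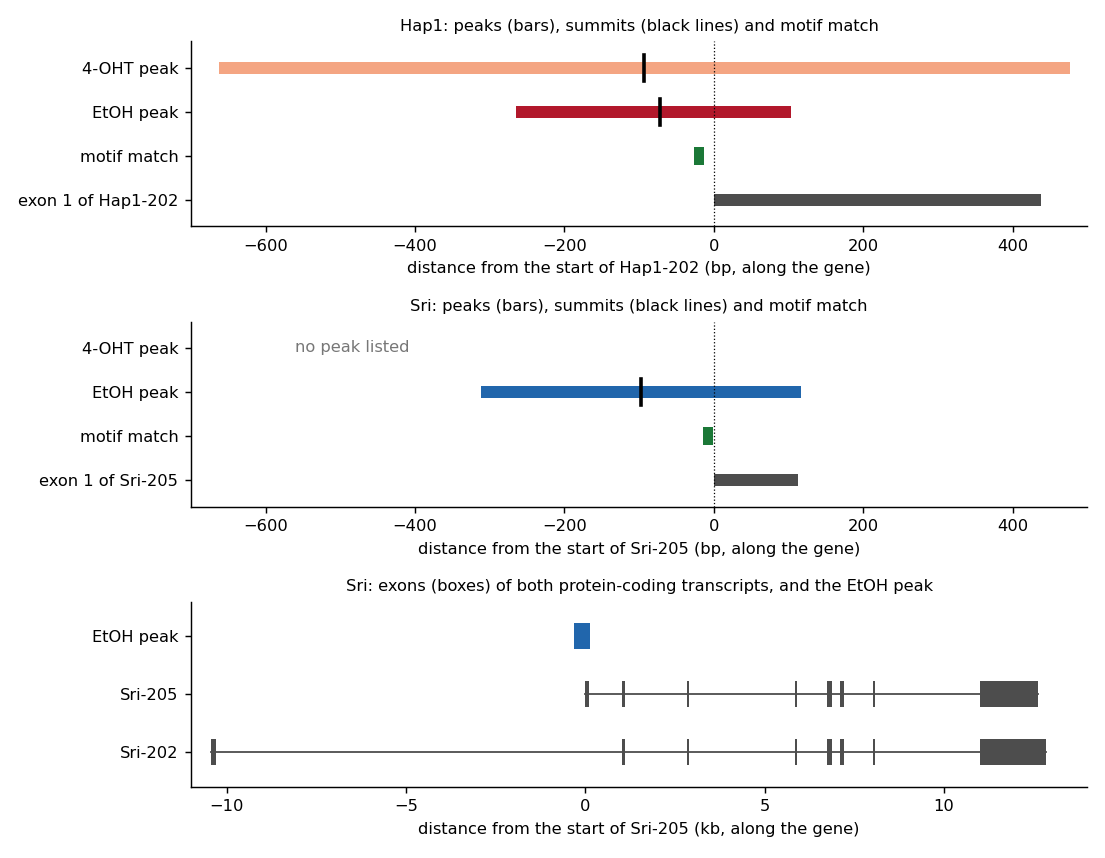
Position of the EtOH and 4-OHT peaks (bars), their summits (black lines), the motif match and exon 1 around the start of Hap1-202 and of Sri-205, in bp along each gene, and below the exons of both protein-coding Sri transcripts in kb. The match lies just before the start at both genes, and the Sri peak lies at the inner start, about 10 kb inside the gene.

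The 2 Sri starts differed in sequence. In the 501 bp around the outer start GC content was 43.7%, the observed to expected ratio of CpG was 0.293 and there were 7 CpGs. Around the inner start the values were 70.1%, 0.863 and 51. The outer start held neither a full match nor the core with its spacing, and the inner one held the full match. The Hap1-202 start had intermediate values of 59.5%, 0.746 and 33 CpGs. Both starts with a listed peak had a higher GC content and CpG ratio than the Sri start without one. The genes were chosen for their peaks, and values over all annotated starts are not given, so this describes these starts only.

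A peak at an inner start was a minority pattern among bound genes. Of 357 protein-coding genes, Sri among them, whose strongest EtOH peak was at a coding start, 46 (12.9%, Wilson 95% interval 9.80 to 16.8) had the summit at least 1 kb inside the gene. For 25 of them (7.0%, 4.79 to 10.1) it was at least as far inside as at Sri. The intervals here and elsewhere cover the sampling of peaks or genes only.

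In composition the order of the 2 peaks was the opposite of that in signal value. GC content was 57.2% in the Hap1 peak and 65.8% in the Sri peak, above 42.2% and 72.4% of the 526 other EtOH peaks, whose median was 58.9%. The CpG ratio was 0.763 at Hap1 and 0.890 at Sri, against a median of 0.693. Repeats were masked over 18.4% of the Hap1 peak and 15.1% of the Sri peak, while the median was 5.03%. The distance from summit to start, 72 and 97 bp, was below the median of 149.5 bp over the other peaks for both genes.

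The position of the motif was alike at the 2 genes. The Hap1 match at chr11:100356141-100356154 lay on the strand of the gene, from 26 to 13 bp upstream of the Hap1-202 start, and its last base is the other RefSeq start. The Sri match at chr5:8056513-8056526 also lay on the strand of its gene, from 14 bp upstream to the base before the Sri-205 start. Of 165 full matches in other EtOH peaks within 1 kb of an annotated start, 101 (61.2%, 53.6 to 68.3) were on the strand of that start. For 48 (29.1%, 22.7 to 36.4) the match ended 1 to 50 bp before the start, and 39 (23.6%, 17.8 to 30.7) did so on its strand, as at Hap1 and Sri. Both genes thus had an arrangement that about 24 in 100 of these matches shared.

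**Figure D3:**
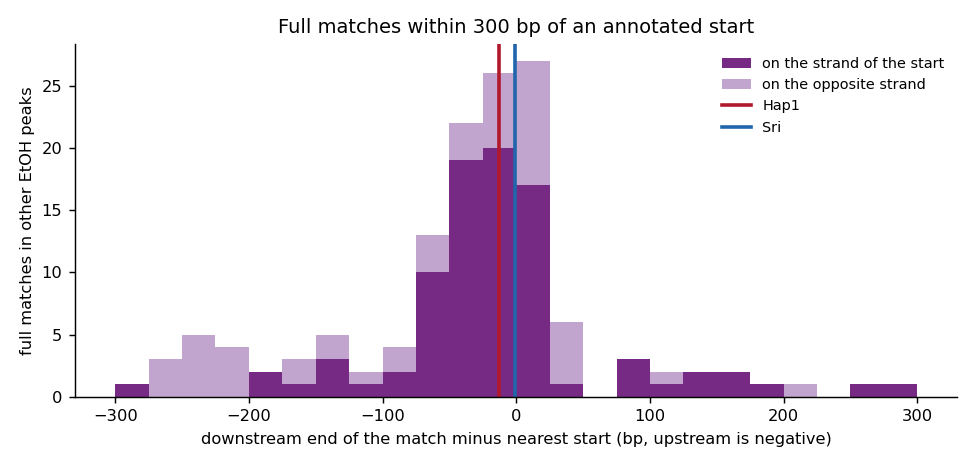
Number of full matches in the other EtOH peaks by the distance of the match's downstream end from the nearest annotated start, within 300 bp, stacked by strand. The Hap1 match (13 bp before its start) and the Sri match (1 bp before) fall in the fullest part of the plot.

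The match was nearer to the summit at Hap1 than at Sri. Its centre was 52.5 bp from the Hap1 summit and 89.5 bp from the Sri summit. Over 189 full matches in other EtOH peaks the median was 60.5 bp, and 104 of them (55.0%) were farther from the summit than the Hap1 match and 60 (31.7%, 25.5 to 38.7) farther than the Sri match. At both genes the match lay between the summit and the start codon.

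A full match was found in 170 of 528 EtOH peaks (32.2%). In windows of the same length and placing at the starts of all protein-coding transcripts it was found in 818 of 54365 (1.50%) for the Hap1 peak and in 926 (1.70%) for the Sri peak, and in 438 of 32851 RefSeq promoter windows (1.33%). The spaced core alone was in 61.4% of the EtOH peaks and in 15.5% and 17.7% of the windows. A match is a description of letters, not evidence of a bound site. With 1 difference allowed anywhere, the Hap1 peak gained no site, while the Sri peak gained 3, each with a difference in the core (T6C on either strand and G4A). At least 1 site by this looser reading was in 73.5% of the EtOH peaks and in 21.6% and 24.7% of the windows. Without repeat masking the Hap1 peak gained 1 site with a difference outside the core (V9T, where V stands for any base but T).

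The 2 matches also differed in how common their bases were among other full matches. A matrix of log2 odds was built from the 189 full matches in the other EtOH peaks. The Hap1 site scored 16.6, near the median of 16.2, with 72 of the 189 above it. The Sri site scored 11.6, with 188 of the 189 above it and a range from 11.3 to 19.2. With equal base frequencies as the background of the matrix, an alternative chosen after seeing the data, 181 of the 189 were above the Sri site. At position 7 the A of Hap1 was present in 38.6% of the other matches and the G of Sri in 13.8%. At position 10 the G of Hap1 was in 55.6% and the C of Sri in 9.52%. At position 9 the order was the other way, with the A of Hap1 in 30.7% and the G of Sri in 39.7%. At positions 11 and 14 the bases of both genes were common, with 54.5% and 45.5% at position 11 and 41.3% and 38.6% at position 14.

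The full matches in the peaks nearest in rank were scored in the same way. Of the 50 EtOH peaks nearest in rank to Sri, 8 held a full match. Their best scores ran from 14.01 to 17.4 with a median of 15.6, all above the Sri site. Of the 50 nearest to Hap1, 22 held one, with scores from 12.3 to 19.0 and a median of 16.1. These ranks are among full matches only. By the best 14 bases of any kind in each peak, 68.1% of the 526 other EtOH peaks and 42 of the 50 nearest in rank lay below the Sri site, and 86.1% and 42 of 50 below the Hap1 site. Because the matrix was built from full matches, peaks without one score low by construction, and for Sri these shares restate how many peaks held a full match.

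**Figure D4:**
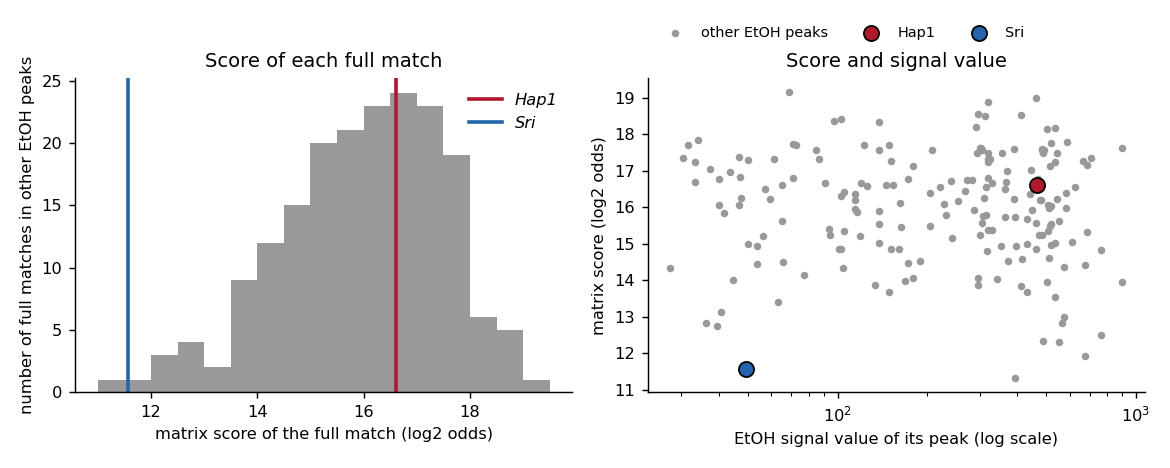
Matrix score (log2 odds) of the full matches in the EtOH peaks, as a histogram over the 189 matches outside Hap1 and Sri, and against the signal value (log axis) of the peak that holds each match. The Hap1 site (16.6) is near the middle of the scores, and the Sri site (11.6) is next to the lowest.

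The peaks of like strength were described to place each gene. The 50 peaks nearest in rank to Hap1 had signal values from 420 to 511, and 27 (54.0%, 40.4 to 67.0) were overlapped by a 4-OHT peak. The 50 nearest to Sri ran from 44.5 to 55.4, and 0 were overlapped, which allows a share of up to 7.13%. A 4-OHT peak, as at Hap1, was thus present at somewhat more of its neighbours than not, and its absence, as at Sri, was shared by all 50 of that gene's neighbours. Of the 27 neighbours of Hap1 with a 4-OHT peak, 26 had a 4-OHT rank above that of Hap1, over a range of ranks 4 to 94 with a median of 54.

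The place of these neighbours was counted next. Promoters, defined as a TSS and the 1 kb before it, were touched by 20 of the 50 peaks near Sri (40.0%, 27.6 to 53.8) and by 45 of the 50 near Hap1 (90.0%, 78.6 to 95.7). Among the 20 nearest to Sri it was 10 (50.0%). A full match was in 8 (16.0%, 8.34 to 28.5) and 22 (44.0%, 31.2 to 57.7). The median GC content was 54.5% near Sri, against 65.8% in the Sri peak, and the median CpG ratio was 0.452 against 0.890. Near Hap1 the medians were 64.1% and 0.828, both above the values of the Hap1 peak.

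**Figure D5:**
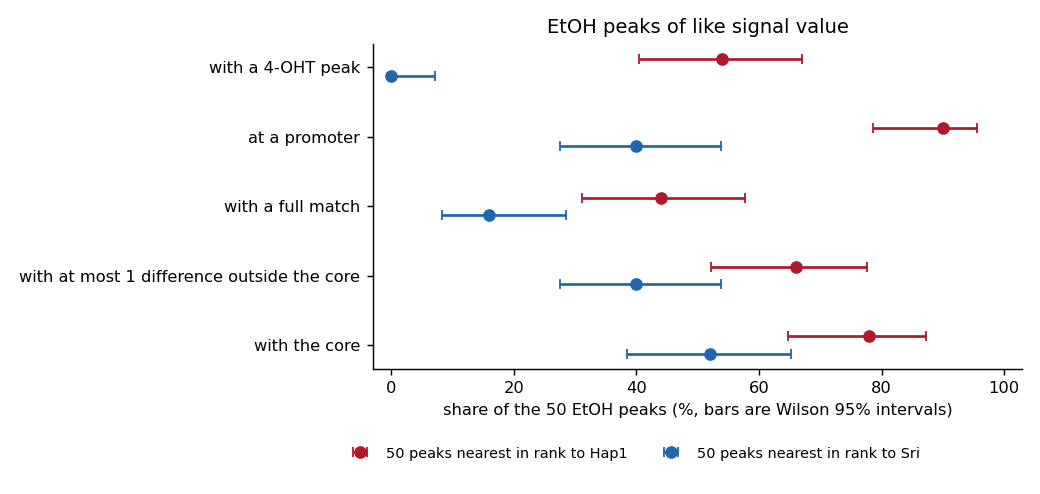
Share of the 50 EtOH peaks nearest in rank to Hap1 (red) and to Sri (blue) that have a 4-OHT peak, touch a promoter or hold the motif at 3 levels of strictness, in percent with Wilson 95% intervals. All 5 shares are lower near Sri, and none of its 50 neighbours has a 4-OHT peak.

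The peaks next in rank differed in whether they touched a promoter, and none of the 4 had a 4-OHT peak. Above Hap1 was a peak at Raly (signal value 471, summit 83 bp downstream of a start) and below it one at Nphp4 (463, 99 bp upstream), both at promoters, with a full match only at Nphp4. Next to Sri were peaks nearest to Gm12408 (49.9, 14020 bp from its start) and Ube2d3 (49.0, 1301 bp downstream of a start). Neither touched a promoter or held the motif core.

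The genes of known partners and relatives of both proteins were looked up in the lists. Of 17 partners and relatives of huntingtin-associated protein 1, 2 had an EtOH peak and 0 a 4-OHT peak. Trak1, a related adaptor for kinesin transport, had a peak of signal value 138 (rank 258) with its summit 121 bp upstream of a start, and the peak held the spaced core but no full match. Klc2, a kinesin light chain, had one of 46.7 (rank 415) with a full match, 1322 bp beyond its own start and nearest to Rab1b. Of 14 relatives and partners of sorcin, such as other penta-EF-hand proteins and ryanodine receptors, 0 had a peak in either list. Both lists are too short to be set against the 2.48% of all protein-coding genes.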

How the data were processed

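PRDM10 ChIP-seq peak lists of EtOH and 4-OHT mESCs were used, 1 per treatment. The authors aligned reads to mm10 with bwa 0.7.13, removed duplicates with Picard 2.10.6 and filtered with samtools 1.2, called peaks with SPP on the pooled samples of a treatment, removed blacklisted regions and kept peaks at an IDR of 0.05 between pooled pseudo-replicates. For each peak the authors deposited a signal value, which is the enrichment that SPP gave, and the deposited score is the IDR score, capped at 1000. The lists hold no read counts, so the depth behind each peak and its precision cannot be given. The methods state only an approximate number of raw reads per library.

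Ranks, overlaps of at least 1 bp, distances to GENCODE vM21 starts, composition and motif matches in GRCm38 sequence were computed here. Shares carry Wilson 95% intervals, and no tests were made, since the genes were chosen by these readouts. The matrix used a pseudocount of 0.5 and the base composition of the EtOH peaks. Named genes were Hap1, Sri, their neighbours in the genome and in rank, and listed partners with a peak. Members and lists were chosen with earlier results of these data known. The motif search, tested on simulated data, found 200 of 200 planted matches. These were drawn from the same pattern, so the test checked the code and not the reading of the logo. Python 3.11.15, numpy 2.4.6, scipy 1.17.1, pandas 2.3.3, pysam 0.24.0, matplotlib 3.10.9 and samtools 1.23.1 were used.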

Additional observations from a re-analysis of the deposited data

How the results depend on the processing

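Of 56 alternatives over the results above, 47 left the value as it was or, for a share with an interval, inside that interval, 8 moved it and 1 changed its sign. Among promoter peaks only, 80.6% were lower than Hap1 (rank 73 of 376) and 12.8% lower than Sri (rank 328). Where the overlap had to be 50% or more of each peak, 0 4-OHT peaks were counted at Hap1, since the EtOH peak is 32.4% of the wider 4-OHT peak. Measured from the 5′ end of the gene, the Sri summit was at +10352 bp and not upstream. With at most 1 mismatch anywhere, 4 sites were counted in the Sri peak. Among the 20 peaks nearest to Sri, 100% had the commonest width, against 98.0% of 50. In alternatives added after seeing the data, 73.0% and 4.23% of the other full matches scored below the Hap1 and Sri sites with equal base frequencies as background, and 54.0% below the Hap1 site with a matrix from 329 sites with up to 1 difference outside the core, against 61.9% and 0.529%. No paired analysis was possible because the lists are pooled over the antibodies and carry no column per sample, and for the same reason no replicate could be left out. The pooled lists, which hold no read counts, limit every value to a description.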
